A study of Mus musculus with 12 samples.

Results

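Meiotic recombination starts at DNA double-strand breaks, and the hotspots described here are those of mouse chromosomes 13, 14 and 15 in the testis of wild type and Ankrd31 knockout mice. They are all the listed hotspots whose centre lies more than 10 Mb from the distal end of the chromosome, that is up to 110.4, 114.9 and 94.0 Mb. They number 4211 of 35514 list entries, with 1838 of 13480 in the wild type list and 2373 of 22034 in the knockout list. DMC1 single-stranded DNA sequencing (SSDS) had been run on whole testis of adult males with a goat antibody to DMC1. The wild type group was 2 samples of strain C57BL/6JCrl (B6), and the knockout group was 2 samples of mice with the allele Ankrd31 tm1Atot. The labels give the knockout mice by this allele alone, so strain background and genotype cannot be told apart in any difference below. Each genotype has 1 deposited list with no values by animal, so no spread between animals can be given and no p-value is printed. The 95% exact binomial intervals cover counting error only. The 8 H3K4me3 and input samples came from mice of 13 days and are outside this comparison.

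DMC1 is a recombinase that coats the single-stranded DNA exposed on either side of a meiotic break, and SSDS recovers this DNA. In mice the histone methyltransferase PRDM9 binds its sequence motif and so places most hotspots away from gene promoters, while mice without PRDM9 break DNA mainly at promoters and other sites with H3K4me3. ANKRD31 acts with the axis-bound factors that form the breaks, and its gene lies on chromosome 13.

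The chromosomes were selected on measured values, the numbers of wild type and knockout hotspots and of unpaired ones in these lists, so these counts are a description and not a finding. A hotspot overlapping a hotspot of the other list by at least 1 bp was called shared, and the rest were named wild-type-only or knockout-only by their list. Being unpaired means not listed and does not show an absence of breaks. There were 1485 shared, 353 wild-type-only hotspots (19.2% of their list here, 14.8% over all chromosomes) and 888 knockout-only hotspots (37.4% here, 47.9% over all). Strength is the authors' read count minus background, and relative strength divides it by the median of the autosomal shared hotspots of its list, 182 (wild type) and 151 (knockout). At the distal limit of chromosome 13, the last hotspot inside was shared (wild type strength 708) and the first outside was shared too (144). On chromosome 14 these were a shared hotspot of wild type strength 155 and a knockout-only hotspot of strength 143. On chromosome 15 they were a shared hotspot of wild type strength 46 and a knockout-only hotspot of strength 96.

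Several of the strongest knockout-only hotspots lay at listed gene starts. The DNA just before such starts is printed for 4 of them, for a pair of starts within 1 Mb of Ankrd31 with a knockout-only hotspot (Polk and Fam169a) and for Ankrd31, whose own start had no hotspot in either list. Each line holds the 150 bases before a RefSeq start of assembly GRCm38.p6, read 5′ to 3′ on the gene's strand. Capitals mark the letters of a GC box (GGGCGG or its complement CCGCCC) and of CCAAT or its complement ATTGG. Elovl2, a fatty acid elongase, held 5 GC boxes, Ssbp2, Nr1d2 and Ankrd31 held 2, 2 and 3, and the others 1 each.
Elovl2, chr13:41220404-41220553, minus strand: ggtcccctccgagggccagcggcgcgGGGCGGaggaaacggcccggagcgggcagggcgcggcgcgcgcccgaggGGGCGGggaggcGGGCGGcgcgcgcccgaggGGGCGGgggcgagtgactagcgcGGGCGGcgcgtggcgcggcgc
Ssbp2, chr13:91460947-91461096, plus strand: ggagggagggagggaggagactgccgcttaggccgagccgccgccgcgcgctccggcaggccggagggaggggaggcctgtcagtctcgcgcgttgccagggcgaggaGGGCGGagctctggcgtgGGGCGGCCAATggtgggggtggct
H4c11, chr13:21734884-21735033, plus strand: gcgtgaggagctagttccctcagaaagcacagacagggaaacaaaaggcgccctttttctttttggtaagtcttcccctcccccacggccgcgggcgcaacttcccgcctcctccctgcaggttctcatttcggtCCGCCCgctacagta
Nr1d2, chr14:18239107-18239256, minus strand: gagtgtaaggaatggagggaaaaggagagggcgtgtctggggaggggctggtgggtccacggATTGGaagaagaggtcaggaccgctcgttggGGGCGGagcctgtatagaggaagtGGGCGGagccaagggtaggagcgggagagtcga
Polk, chr13:96542580-96542729, minus strand: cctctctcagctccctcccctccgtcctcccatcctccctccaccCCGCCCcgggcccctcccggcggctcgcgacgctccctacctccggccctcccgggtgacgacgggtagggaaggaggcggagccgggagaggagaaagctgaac
Fam169a, chr13:97071493-97071642, plus strand: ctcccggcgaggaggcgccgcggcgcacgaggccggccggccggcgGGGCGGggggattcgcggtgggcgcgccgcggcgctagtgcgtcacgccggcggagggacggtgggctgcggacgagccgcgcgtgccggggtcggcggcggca
Ankrd31, chr13:96748143-96748292, plus strand: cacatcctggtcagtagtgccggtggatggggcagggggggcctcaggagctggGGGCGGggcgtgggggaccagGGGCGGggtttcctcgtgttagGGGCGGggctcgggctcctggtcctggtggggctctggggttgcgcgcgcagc

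Before any difference between the lists was read, the weakest hotspots each list accepts were compared by chromosome. On chromosomes 13, 14 and 15 the 5th percentile of reads per hotspot was 41, 43 and 44.8 in the wild type list and 53, 54 and 54 in the knockout list. On 12 other autosomes (2 to 9 and 16 to 19) it was higher in the wild type list, between 57.3 and 64, and 51 to 55 in the knockout list. On chromosomes 1, 10, 11 and 12 both lists went down to low counts, 41 to 45 reads (wild type) and 35 to 45 (knockout). Chromosomes 13, 14 and 15 were thus the autosomes where the wild type list reached weaker hotspots than the knockout list by 9.2 reads or more. On the other 16 the wild type value lay above the knockout value or at most 0.9 reads below it.

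**Figure D1:**
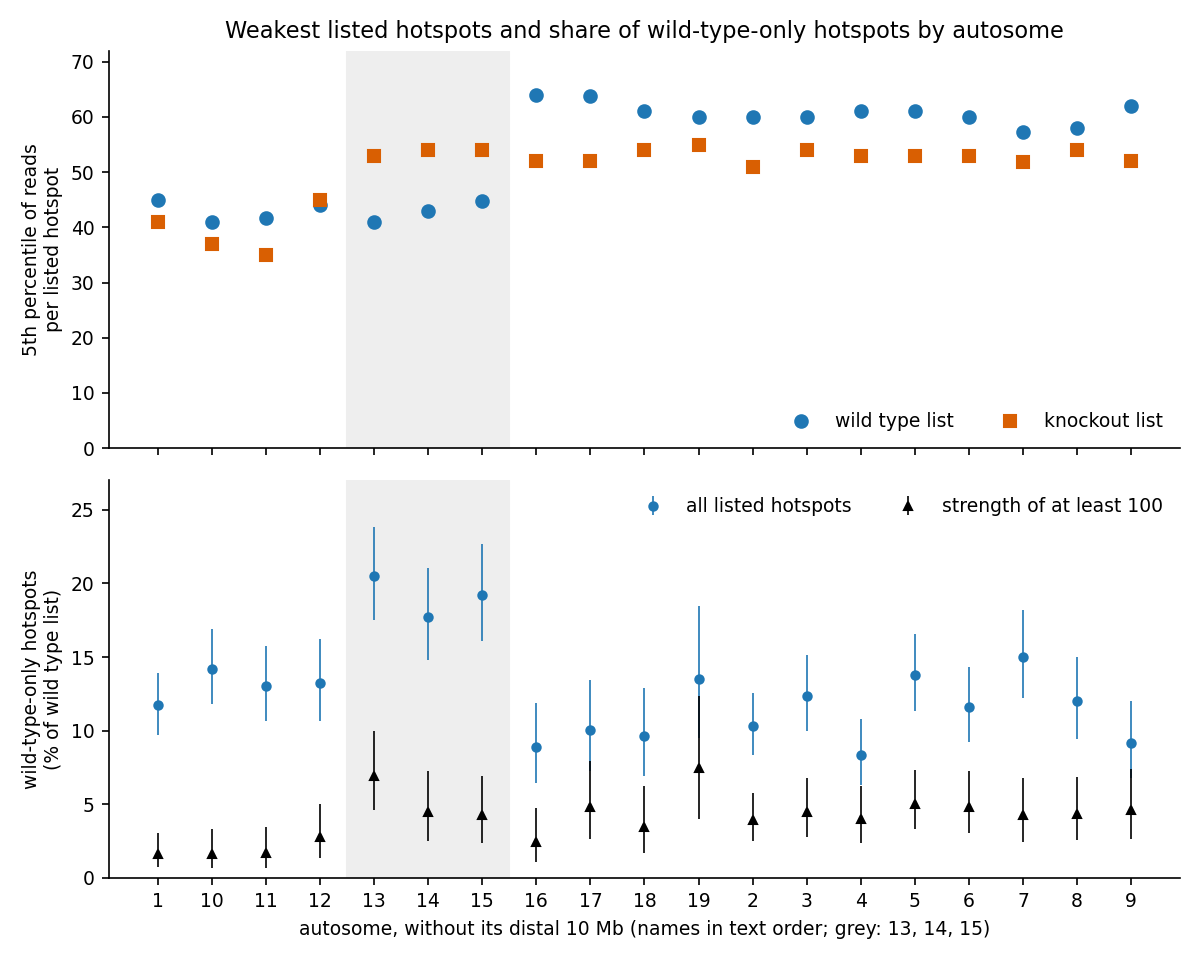
Top, the 5th percentile of reads per listed hotspot in the wild type list (circles) and the knockout list (squares) for each autosome without its distal 10 Mb. Bottom, the wild-type-only share of the wild type list with 95% exact binomial intervals, for all hotspots (circles) and for strength of at least 100 (triangles). Chromosomes 13, 14 and 15 (grey) pair low wild type values with knockout values of 53 to 54, and their share is the highest only with all hotspots.

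Across these chromosomes 353 of 1838 wild type hotspots had no partner, 19.2% (17.4 to 21.1%), against 14.8% over all chromosomes. By chromosome the share was 20.5% on 13, 17.7% on 14 and 19.2% on 15, and it ran from 8.33 to 15.02% on the 16 other autosomes. Of 2373 knockout hotspots 888 had no partner, 37.4% (35.5 to 39.4%), against 47.9% over all chromosomes. That share was 34.9, 36.0 and 41.4% by chromosome and 41.7 to 57.5% elsewhere. The knockout list held 1.29 hotspots per wild type hotspot (1.22, 1.29 and 1.38 by chromosome), where the others held 1.52 to 2.03.

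Most of the unpaired wild type hotspots were weak. Their median strength was 52, and that of knockout-only hotspots was 81. Of the 353, 128 (36.3%, 31.2 to 41.5%) had fewer reads than the 5th percentile of the knockout list on their chromosome, where 77 of 1144 (6.73%) did on the 16 other autosomes. Hotspots of strength below 50 made up 302 of 1838 (16.4%) of the wild type list here and 248 of 6669 (3.72%) on the 12 autosomes with a high floor in both lists.

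Between strengths of 50 and 150 the wild-type-only share over the 3 chromosomes together was close to that of those 12 autosomes. It was 33.7% (28.2 to 39.6%) against 32.3% for strength 50 to 75, 21.6% against 19.3% for 75 to 100, and 11.9% (8.06 to 16.8%) against 11.99% for 100 to 150. From 150 to 250 it was 7.58% (4.69 to 11.5%) against 4.90%, and from 250 on 1.42% (0.614 to 2.78%) against 0.843%. By chromosome the share for 75 to 100 was 19.2, 13.4 and 35.2% (22.7 to 49.4%) on 13, 14 and 15. For 150 to 250 it was 13.9% (7.79 to 22.2%), 4.71 and 2.56%. Below 50, where 161 of the 353 lay, the pooled share was higher here, 53.3% (47.5 to 59.0%) against 38.3% (32.2 to 44.7%). Over the 3 chromosomes together the knockout-only share was lower than on the 12 at every strength, but on chromosome 15 it was 64.2% against 60.1% for 75 to 100 and 13.3% against 12.9% from 250 on. Together it was 35.6% (31.2 to 40.1%) against 46.5% (44.4 to 48.7%) for strength 100 to 150, and 9.77% (7.24 to 12.8%) against 12.9% (11.5 to 14.4%) from 250 on.

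With hotspots of strength of at least 100 alone, 56 of 1063 wild type hotspots were unpaired, 5.27% (4.004 to 6.79%). Over the 16 other autosomes together it was 3.68% (3.23 to 4.17%). The shares of 6.93, 4.48 and 4.25% on 13, 14 and 15 lay inside the 1.61 to 7.43% of the other autosomes. So did the ratios of 1.21, 1.32 and 1.36 knockout to wild type hotspots, in a range of 1.11 to 1.54. The knockout-only share was 23.1% (20.9 to 25.4%), beside 29.4% (28.4 to 30.4%) over the 16 other autosomes together. It divided into 21.0, 22.6 and 25.5% on 13, 14 and 15. The value of chromosome 13 lay below the lowest other autosome, 21.5%, and the other two lay inside the range up to 43.1%.

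Along the chromosomes, 61 windows of 5 Mb held 1806 of the wild type and 2339 of the knockout hotspots. A window held 1 to 16 wild-type-only hotspots (median 5) and 2 to 33 knockout-only hotspots (median 13). Wild-type-only hotspots outnumbered knockout-only ones in 2 of the 61 windows, 25 to 30 Mb of chromosome 13 (11 against 6) and 80 to 85 Mb of chromosome 14 (5 against 2). Elsewhere this was so in 2 of 372 windows. In both windows every wild-type-only hotspot was below strength 100, with medians of 40 and 43. The largest counts of wild-type-only hotspots were 16 at 90 to 94.0 Mb of chromosome 15, 14 at 20 to 25 Mb of chromosome 14 and 12 at 40 to 45 Mb of chromosome 13. They followed the number of wild type hotspots: across the 61 windows Spearman's rho between them was 0.67 and Pearson's r 0.67, as a description, since one count contains the other.

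**Figure D2:**
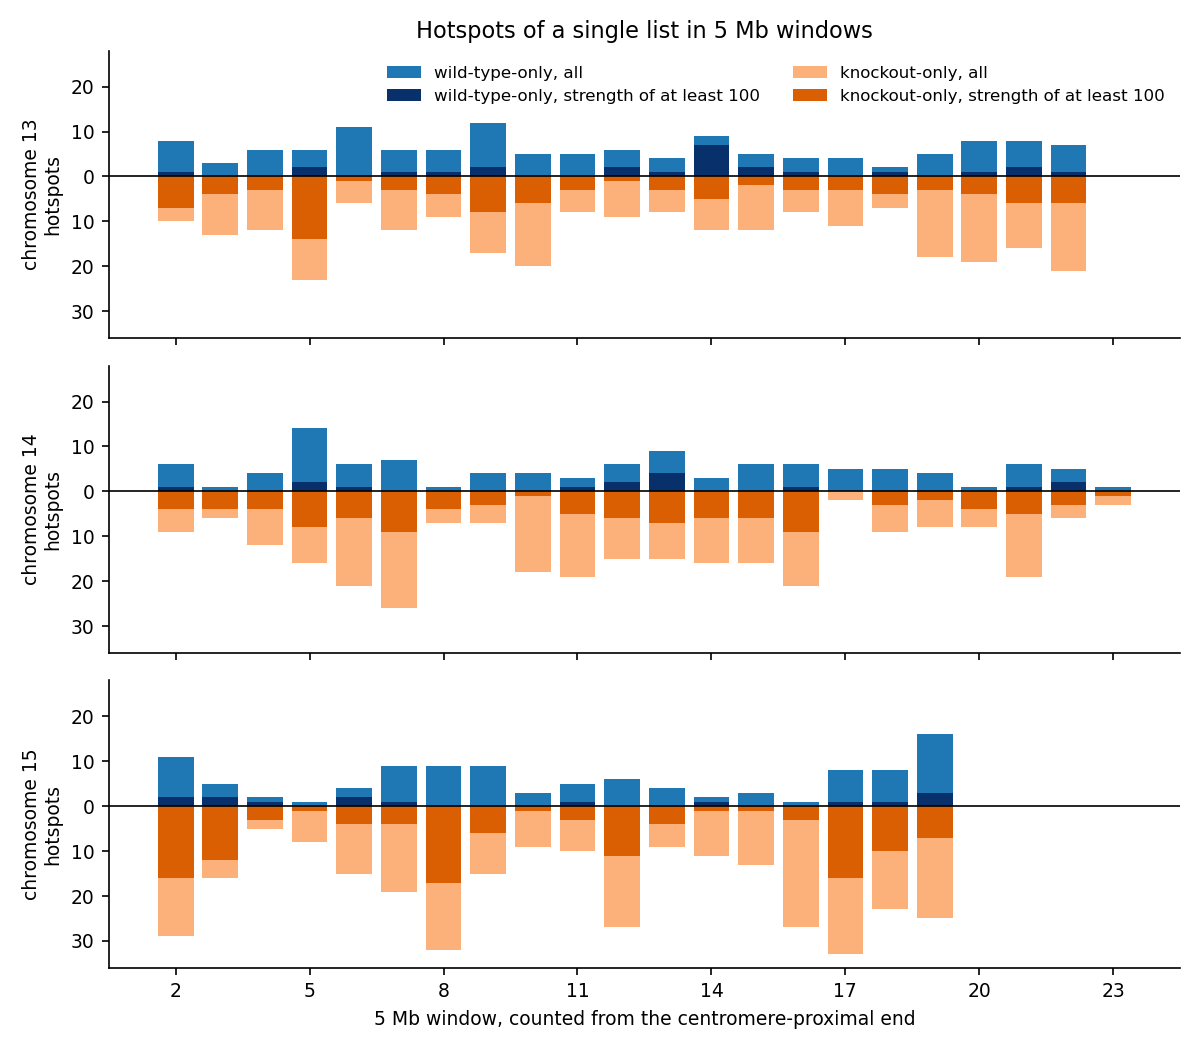
Hotspots found in 1 list only, in 5 Mb windows numbered from the centromere-proximal end of each chromosome. Bars above 0 count wild-type-only and bars below 0 knockout-only hotspots, with those of strength of at least 100 in the darker shade. Dark bars above 0 are short except in window 14 of chromosome 13, with 7 hotspots.

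One stretch of chromosome 13 held strong wild-type-only hotspots side by side. Of 12 wild type hotspots between 65526614 and 67494538, 9 were wild-type-only, and 7 of these had a strength of at least 100. It was singled out after its values were seen, as the 2 Mb of the chromosome with the most wild-type-only hotspots. The largest number of wild-type-only hotspots of that strength within 2 Mb was 7 on chromosome 13, 3 on 14 and 2 on 15, and 2 to 6 on the 16 other autosomes (median 3). The stretch holds 32 protein-coding genes, of which 15 are named Zfp, zinc finger proteins whose genes lie in tandem copies. A further 11 carry Gm or LOC names, and 33 pseudogenes lie among them. Along the stretch, Zfp640 comes before the gene Uqcrb, and the other genes named Zfp come after it. All 7 wild-type-only hotspots with a strength of at least 100 lay before Uqcrb.

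The strongest wild-type-only hotspot there, chr13:65659424-65661894, had a strength of 266. It lay between genes, 28946 bp from the nearest end of a protein-coding gene, Gm53057. Before it, chr13:65526614-65529202 had 231. After it, 6 followed with strengths of 84, 160, 149, 163, 199 and 145, the last at chr13:66827929-66830547. The ninth, of strength 40, lay inside Zfp58. None of the 9 lay within 1 kb of a protein-coding gene's end.

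The 3 shared hotspots of the stretch all had lower relative strength in the knockout. The weakest of them (wild type strength 138) had a log2 of knockout over wild type of −0.93 (counting interval −1.39 to −0.48). The next, of 204, had −1.43 (−1.86 to −1.01), and the strongest, of 376 and near LOC115486435, had −0.36 (−0.60 to −0.12). The first 8 wild-type-only hotspots and all 3 shared ones lay before 67 Mb. The 4 knockout-only hotspots of the stretch began at 66714674, and 2 of them lay at ends of Uqcrb, a subunit of respiratory complex III, and Zfp459. The wild type hotspots summed to a strength of 2155 over 32.3 kb (mean 180) and the knockout hotspots to 648 over 12.8 kb (mean 92.6).

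In the 1 Mb before the stretch all 7 wild type hotspots were shared, with a median log2 of 0.31. In the 1 Mb after it all 3 were shared, with a median of −0.76. The wild type hotspots of the stretch were wide: 11 of 12 were 2442 to 3228 bp wide. Their median background was 21 reads, below the 25 in the 1 Mb before and the 50 in the 1 Mb after. Among the other 646 wild type hotspots of chromosome 13, 20 (3.10%) were as wide as 2442 bp and the median background was 10. The treatment of reads with several possible positions was not given in the sources used here. What part gene copies had in these values was not tested. Without the stretch, 19 of 365 wild type hotspots of strength of at least 100 on chromosome 13 were wild-type-only, 5.21% in place of 6.93%.

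**Figure D3:**
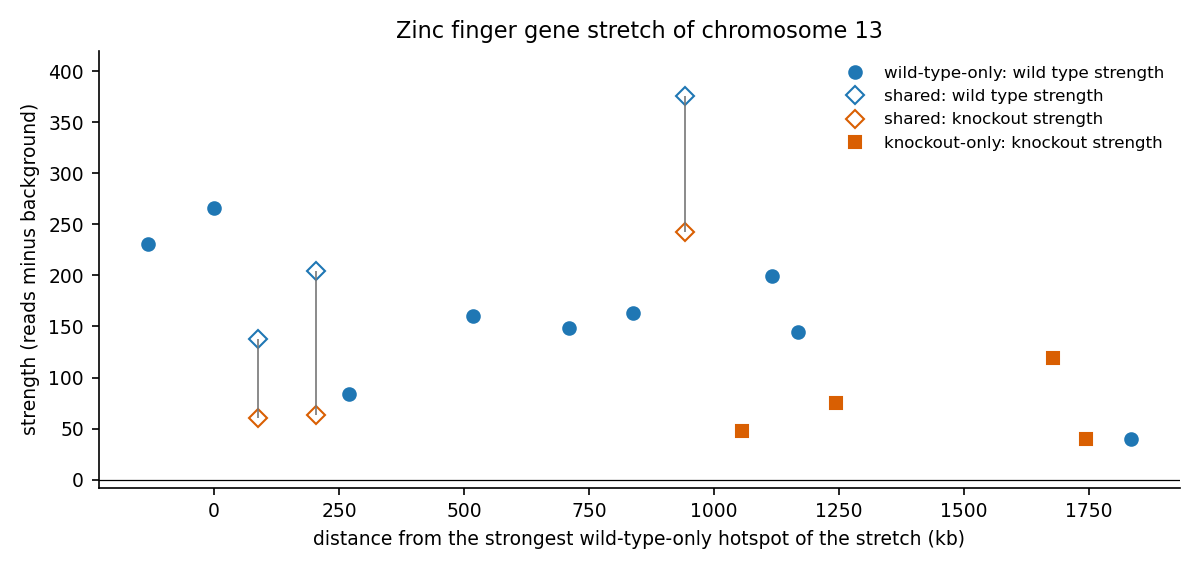
Strength of each hotspot of the zinc finger gene stretch of chromosome 13 by its distance in kb from the strongest wild-type-only hotspot. Filled circles are wild-type-only, filled squares knockout-only, and open diamonds joined by a line are the 2 values of a shared hotspot. Wild-type-only hotspots of 84 to 266 fill the first part, which precedes most of the genes named Zfp. Knockout-only ones of 40 to 119 appear in the second part.

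Other runs held mostly weak wild-type-only hotspots. The densest 2 Mb of chromosome 14, 20060349 to 22051144, held 10 of 20 wild type hotspots as wild-type-only, with a median strength of 55 and 1 of at least 100. It covers Vcl, the adhesion protein vinculin, Adk, adenosine kinase, and Kat6b, a histone acetyltransferase, and it also held 14 knockout-only hotspots. On chromosome 15, 89213312 to 91208965 held 9 of 26 as wild-type-only (median 70), around Shank3, a scaffold of synapses, and Syce3, part of the synaptonemal complex. Next to it, 92187453 to 93969911 held 9 of 19 (median 52), of which 2 had at least 100 and the strongest 426.

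Some of the strongest wild-type-only hotspots lay in such runs and others did not. On chromosome 15 the strongest, chr15:34952271-34953631, had a strength of 730 and lay inside Stk3, a kinase of the Hippo pathway. The next, in the run just described, had 426 and lay 1109 bp from an end of Yaf2, and the third had 419 and lay 997 bp from an end of Rad21, a cohesin subunit. On chromosome 14 the 3 strongest had 314 (inside Pdhb, a subunit of pyruvate dehydrogenase), 270 (inside Wdfy2) and 219 (1236762 bp from Slitrk1). The first of these lay in a run of 5 wild-type-only hotspots, 7354665 to 8508926. Outside the zinc finger stretch, chromosome 13 had 286 inside Dtnbp1 and 245 between genes, 133022 bp from Eef1e1. These values are within the range of shared hotspots, whose median wild type strength was 170.

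Knockout-only hotspots were spaced by a median of 197 kb on chromosome 13, 187 kb on 14 and 126 kb on 15, against 79.0 to 169 kb on the other autosomes. The longest stretch without one was 3.48 Mb, on chromosome 14 between 8800706 and 12283508. It covers 3 protein-coding genes, among them the long genes Fhit and Ptprg, a receptor tyrosine phosphatase. It was not poor in breaks: it held 26 wild type hotspots, 7.46 per Mb against 5.39 for the chromosome, and 24 were shared. The longest stretches of the other autosomes ran from 1.39 to 5.84 Mb, with a median of 2.75 Mb.

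The other long stretches of chromosome 14 lay side by side, 3.39 Mb from 79588247 and 3.15 Mb from 83010355, around Olfm4, Pcdh8 and Pcdh17, the last 2 protocadherins. In them 12 and 7 shared hotspots had median log2 ratios of 0.75 and 1.95. Of these 19, 16 were above 0. On chromosome 15 the 3 longest measured 2.57, 2.41 and 2.11 Mb, and they held 23, 17 and 17 wild type hotspots, of which 22, 17 and 15 were shared. The last lay in and around Ctnnd2, a catenin of neurons. Relative strength was higher in the knockout at 18, 16 and 11 of these shared hotspots. On chromosome 13 the longest was 2.55 Mb with 18 genes, among them Smad5, a mediator of BMP signals, Hnrnpk and the neurotrophin receptor gene Ntrk2. Here 14 of 16 wild type hotspots were shared with a median log2 of 0.61. The next, 2.28 Mb from 64433855, ran into the zinc finger stretch and held 7 wild-type-only hotspots among 17, with a median of −0.15 for the 10 shared. The third, of 2.06 Mb, covered Pitrm1, Pfkp and Adarb2, with 12 wild type hotspots of which 9 were shared.

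The stretches were bounded by hotspots at gene ends and by hotspots far from genes. On the left, hotspots at ends of Fbxl21 (strength 55), Cdk20 (100), Pitrm1 (121), Sugt1 (72) and Pkdrej (75) were the last before a stretch. The other left hotspots lay 66143 to 1433912 bp from a gene end. On the right, the hotspot at an end of 3830406C13Rik had 136. All others on the right lay farther away, from 34634 bp (Zfp640, strength 48) to 1469439 bp (Pcdh17, 92). Of all knockout-only hotspots on these chromosomes 48.6% lay within 1 kb of a gene end.

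Among the shared hotspots 179 of 1485 (12.1%) were over 2-fold lower in relative strength in the knockout, against 15.8% over all chromosomes, and 233 (15.7%) were over 2-fold higher, against 13.2%. The median log2 was 0.15, with 0.06, 0.22 and 0.24 on 13, 14 and 15, and it ran from −0.10 to 0.16 on the 16 other autosomes. With a wild type strength of at least 100, a choice that itself favours lower ratios, it was −0.19, beside −0.25 over the other autosomes. Of these 1007 shared hotspots 179 (17.8%) were over 2-fold lower and 61 (6.06%) higher, so the larger of the counts depends on the strengths included. With strengths as deposited the median over all shared hotspots was −0.12, and with each strength as a share of its list's sum it was −0.035.

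The shared hotspots with the largest decreases lay inside genes. Of all 1485 shared hotspots, 651 (43.8%) lay inside protein-coding genes and not within 1 kb of an end. At Agtpbp1, which encodes a tubulin deglutamylase, strengths were 1738 (wild type) and 250 (knockout), a log2 of −2.53 (−2.73 to −2.34). At Lyst, a regulator of lysosome traffic, it was 2063 and 339 (−2.34, −2.51 to −2.17), and at the bicarbonate transporter gene Slc4a7 1968 and 319 (−2.36, −2.53 to −2.18). At Top2b, a DNA topoisomerase, it was 527 and 89 (−2.30), at Cdkal1 1184 and 184 (−2.42), at Tnrc6b 1278 and 221 (−2.26) and at Oxct1 690 and 130 (−2.14). The Lyst hotspot was picked by its wild type strength. The rest were picked as the largest decreases among shared hotspots, 2 per chromosome. Both choices favour strong wild type values.

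The largest increases are also picked by the ratio, which favours weak wild type values. The hotspot 5107 bp from Celsr1, a cadherin of planar polarity, went from 26 to 270, a log2 of 3.65 (3.06 to 4.29). The hotspot at the end of Cplane1, 276 bp after its start, went from 43 to 298 (3.06, 2.60 to 3.56). Others lay far from genes, 1253014 bp from Edil3 (33 to 223), 433863 bp from Pik3r1 (57 to 337) and 863544 bp from Diaph3 (29 to 162). One lay in the T cell receptor alpha locus (25 to 137).

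The 3 strongest shared hotspots of each chromosome were ranked by wild type strength, which favours a lower ratio, and all 9 had lower relative strength in the knockout. Wild type and knockout strengths were 2939 and 1260, 2353 and 841, and 2063 and 339 on chromosome 13 (log2 −0.95, −1.21 and −2.34). On chromosome 14 they had 2398 and 1584, 2333 and 1179, and 2289 and 1386 (−0.33, −0.72 and −0.45). On chromosome 15 they had 2628 and 1472, 2156 and 1156, and 1925 and 756 (−0.57, −0.63 and −1.08). Among these 9, the log2 lay between −0.72 and −0.33 on chromosome 14 and at −0.95 or lower on chromosome 13.

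Shared hotspots differed by gene content of their surroundings. In the 11 windows with fewer than 10 protein-coding genes the 171 shared hotspots had a median log2 of 0.58, and 46 (26.9%) were over 2-fold higher and 6 (3.51%) lower. In the 17 windows with 40 genes or more, 396 shared hotspots had a median of −0.03, with 47 (11.9%) higher and 64 (16.2%) lower. The median wild type strength of the shared hotspots was 141 and 174 in these sets. Among shared hotspots of wild type strength of at least 100 the medians were 0.33 and −0.39. The 16 other autosomes had medians of 0.39 and −0.13 in windows of the same gene content, or 0.21 and −0.40 at that strength.

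On chromosome 14 the windows from 80 to 95 Mb hold 2, 3 and 1 protein-coding genes and had medians of 0.85, 0.87 and 0.80. The lowest median of all was −0.75, at 80 to 85 Mb of chromosome 15, a window of 91 genes with 33 knockout-only hotspots. Across the 61 windows, gene number and median log2 had a Spearman's rho of −0.50 and a Pearson's r of −0.45. Gene number and knockout-only hotspots had 0.52 and 0.50, and knockout-only hotspots and median log2 had −0.61 and −0.63. Windows of a chromosome are neighbours in the same lists, so these are descriptions. By chromosome, rho between gene number and median log2 was −0.10 on 13 (21 windows), −0.66 on 14 (22) and −0.60 on 15 (18).

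**Figure D4:**
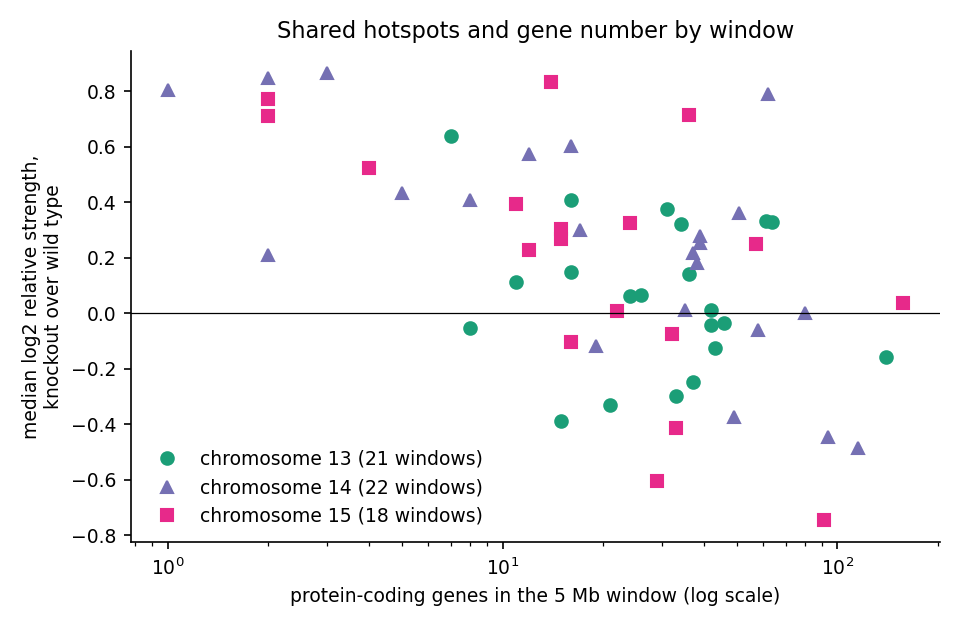
Median log2 relative strength (knockout over wild type) of the shared hotspots of each 5 Mb window against its number of protein-coding genes on a log axis. Each point is a window of chromosome 13 (circles), 14 (triangles) or 15 (squares). Windows with fewer than 10 genes lie above 0 in 10 of 11 cases, and the others spread from −0.75 to 0.83.

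Nearly as many knockout-only hotspots lay at gene ends as away from them. Of 888, 432 (48.6%, 45.3 to 52.0%) were centred within 1 kb of a protein-coding gene's start or end, against 2.56% of shared and 2.27% of wild-type-only hotspots. On the 16 other autosomes this was 46.8%. On 13, 14 and 15 it was 48.2, 51.6 and 46.5%. Of the rest, 182 lay inside protein-coding genes and 274 outside them. Among the strongest were those of Ebag9 (strength 620), Lrp12 (540), Nr1d2 (445), Elovl2 (408), Kctd9 (405), Ssbp2 (390) and H4c11 (367). Nr1d2 encodes a nuclear receptor of the circadian clock, Ebag9 a protein of the Golgi, Ssbp2 a single-stranded DNA binding protein and H4c11 a histone H4. One more, of 493, lay inside Klf10, a zinc finger transcription factor, 1511 bp from its end.

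For the 1604 of 2172 protein-coding genes with a listed start, strand was known. Among the 362 knockout-only hotspots within 1 kb of such a start, the centre lay a median of 23 bp after it (quartiles −84 and 154 bp). Their median strength was 98.5, and that of the remaining knockout-only hotspots was 64. Of the 432 at a gene end, the count without a listed start within 1 kb was 116, which includes starts that are not listed. By chromosome these were 17, 28 and 71 on 13, 14 and 15. From the Ebag9 hotspot of chromosome 15 the nearest listed start lay 4484887 bp away. The start values here and below thus leave out genes such as Ebag9 and Lrp12, most often on chromosome 15.

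The letters of the start region differed between starts with and without a knockout-only hotspot. In the 300 bases from 250 before to 50 after 1975 listed starts, the 449 with a knockout-only hotspot within 1 kb had a median of 25 CpG and 65.0% GC. The 1513 without any hotspot had 7 CpG and 52.3% GC. The share of starts with a knockout-only hotspot was 0.845% with fewer than 5 CpG, 6.51% with 5 to 9, 26.4% with 10 to 19, 41.4% with 20 to 29 and 52.2% with 30 or more. On the other autosomes these were 1.496, 8.96, 31.0, 46.0 and 55.3%.

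The motif GGGCGG, searched on both strands, was found at 78.8% of the starts with a knockout-only hotspot, 31.9% of those without a hotspot and 42.6% of all. These letters contain a CpG, as do TGACGT and TGCGCA below, and what part base composition had in their shares was not tested. CCAAT was found at 37.0% of all 3 sets. TGACGT, the core of a CRE, was found at 11.6 and 8.13% of starts with and without (8.91% of all), TGCGCA at 18.7 and 6.54% (9.32%), and AACNGTT, the letters bound by MYB proteins, at 3.34 and 4.63% (4.30%). Starts with another start of a gene on the opposite strand within 1 kb were 20.7% of those with a knockout-only hotspot and 6.61% of those without. Ankrd31 has 3 GC boxes in the 150 bases printed and yet no hotspot at its start in either list.

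Over these chromosomes 496 of 2172 protein-coding genes (22.8%, 21.1 to 24.7%) carried a knockout-only hotspot at an end, and the gene groups are given beside that share with no test. Among histone genes of the Hist1 clusters of chromosome 13 it was 16 of 54 (29.6%, 17.98 to 43.6%), an interval that includes the share of all genes. These 16 share 11 hotspots, since neighbouring H2A and H2B or H2A and H4 genes have the same one, with strengths of 132 to 367. H4c11 (367), H4c12 (309) and the H2ac1 and H2bc1 pair (315), which is the testis-specific pair, were the strongest. These 54 genes had no wild type hotspot at their ends.

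Of 25 genes of meiosis, germ cells and DNA repair, 9 carried a knockout-only hotspot there (36.0%, 17.97 to 57.5%), again with the overall share inside the interval. They were Cenpm, a centromere protein (strength 161), Polk, a translesion polymerase (140), Ccnb1, cyclin B1 (119), Parp2 (98) and Rad17, a loader of the checkpoint clamp (93). Further, Xrcc4 of end joining had 82, the endonuclease Apex1 82, Ercc8 of nucleotide excision repair 68 and Dmc1 itself 53. Of the list's other members, Rad21 had the wild-type-only hotspot of 419. The meiotic genes Rec8, Mei1, Smc1b, Trip13, Ccnb1ip1 and Ankrd31 had no hotspot at an end. Nor did the remaining members, Msh3, Cdk7, Cenph, Cenpk, Ercc6, Neil2, Esco2, Rad1 and Xrcc6.

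In receptor and other tandem families the counts were as follows. Olfactory receptor genes (Olfr) had 1 of 52 (1.92%, 0.0487 to 10.3%), Olfr741 with 123, and vomeronasal receptor genes (Vmn) 0 of 38 (up to 9.25%). The prolactin family (Prl) had 0 of 26 (up to 13.2%), the Ear and Rnase genes 0 of 16 (up to 20.6%), Ly6 0 of 15 (up to 21.8%) and Serpinb 1 of 16 (6.25%, 0.158 to 30.2%), Serpinb6a with 64. Cadherins had 1 of 8 (12.5%, 0.316 to 52.7%), Cdh10 with 395, and zinc finger genes (Zfp) 4 of 50 (8%, 2.22 to 19.2%) with strengths of 40 to 96. Wild type hotspots lay at ends of a few of these, with Vmn1r196 at 608 and Ly6l at 353.

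Ankrd31 spans 96748289 to 96909794 of chromosome 13. Within 1 Mb of it, 6 wild type and 11 knockout hotspots were listed, of which 3 were shared, 3 wild-type-only and 8 knockout-only. One hotspot lay inside the gene, chr13:96823757-96825247, in the wild type list only, with 49 reads and a strength of 36. The other wild-type-only hotspots had 26, inside Fam169a, and 41, 33029 bp from Enc1. All 3 had fewer reads (49, 39 and 46) than the 5th percentile of the knockout list on the chromosome, 53.

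Just past the end of Ankrd31, 1869 bp from it, a shared hotspot had strengths of 150 and 112, a log2 of −0.15 (−0.52 to 0.21), an interval that includes 0. Before the gene, inside the ceramide transporter gene Cert1, a hotspot went from 713 to 206, −1.52 (−1.75 to −1.30). Inside Sv2c, a synaptic vesicle protein, another went from 142 to 204, 0.79 (0.48 to 1.11).

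The knockout-only hotspots around it included the starts of Fam169a with 165 and Polk with 140. The centre lay 88 bp after the Fam169a start and 58 bp after the Polk start printed above. A further 5 had 50 to 78 and lay away from gene ends: 67 inside Sv2c, 78 between genes, and 59, 50 and 58 beyond Enc1. The Fam169a hotspot was the nearest knockout-only one after the gene, 0.162 Mb from its end.

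Within 5 Mb of Ankrd31 there were 62 wild type and 87 knockout hotspots. Of the former 16 were wild-type-only (25.8%, 15.5 to 38.5%), an interval that includes the 20.5% of the whole chromosome. Their strengths were 26 to 150, with a median of 40.5. Of the latter 41 were knockout-only (47.1%, 36.3 to 58.1%), beside 34.9% for the chromosome, with strengths of 39 to 211 and 21 of them at gene ends. The 46 shared hotspots had a median log2 of 0.10, with 8 over 2-fold lower and 4 higher. The chromosome had a median of 0.06, with 70 of 523 (13.4%) lower and 71 (13.6%) higher. Before the gene 7 of 28 wild type hotspots were wild-type-only and after it 8 of 33. Within 2 Mb these were 2 of 12 and 3 of 8. Of the knockout-only hotspots within 5 Mb, 12 of 18 before and 9 of 23 after the gene lay at gene ends. On the whole chromosome 135 of 280 (48.2%) did.

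**Figure D5:**
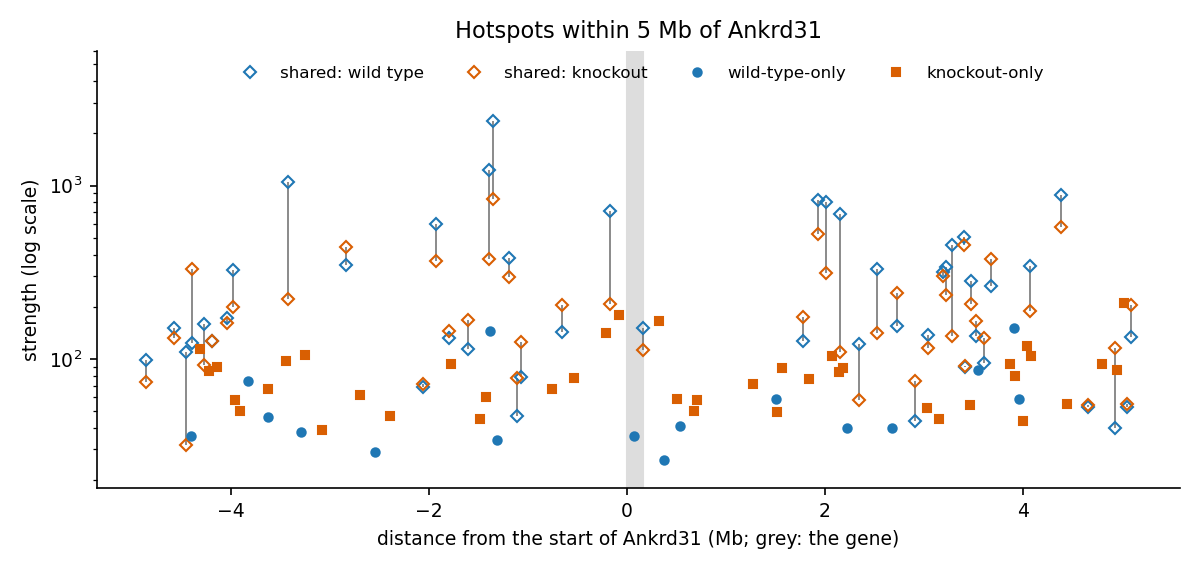
Hotspots within 5 Mb of Ankrd31 by distance from the start of the gene (grey), with strength on a log axis. Filled circles are wild-type-only, filled squares knockout-only, and open diamonds joined by a line give both strengths of a shared hotspot. The 16 wild-type-only hotspots lie at strengths of 26 to 150, low in the plot on both sides of the gene.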

How the data were processed

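The 2 lists of DMC1-SSDS hotspots, 1 per genotype, were used. Build mm10 and the tools CASAVA, Bowtie2, BWA and MACS2 are named, per the submitters' processing notes, without roles. The pooling of animals is not stated in the labels or headers. The deposited count per hotspot holds whole signal reads, per the file headers. The deposited strength is a signal value that equalled reads minus the deposited background estimate in 100% of hotspots. The deposited percent is strength as a percent of the list's sum, and the deposited score is the rank by strength. The lists hold 4376692 wild type and 4203380 knockout reads in hotspots, 501764 and 449366 of them in the hotspots described. Library depth is not known.

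Hotspots were paired by overlap in Python 3.11.15 with pandas 2.3.3, and intervals are from scipy 1.17.1. The pairing, gap and distance steps were tested on simulated intervals. Genes and starts came from RefSeq tables of GRCm38.p6 (mm10 coordinates). Chromosome lengths were entered by hand from general knowledge of mm10. The first 3 Mb of each chromosome were not counted. Windows of 5 Mb with under 80% of their length between 3 Mb and the distal limit were left out.

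Hotspots were named by a rule: on each chromosome the 3 strongest of each class, the 2 largest increases and decreases among shared hotspots at or above the median strength in either list, all within 1 Mb of Ankrd31, those beside the 3 longest stretches, and members of the gene lists. A few hotspots under this rule are not reported here. The lists of Wnt (0 of 2), Pcdh (0 of 4) and Spz and Speer (0 of 1) genes had no member with a knockout-only hotspot at an end, and the Krt list and the Tra and Trd list had 0 protein-coding members. The hotspots, gene lists and alternatives were chosen with earlier results of these data known. No test was run, since the same lists chose the members.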

Additional observations from a re-analysis of the deposited data

How the results depend on the processing

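Of 35 alternatives to the values above, 16 left the value within its counting interval (or within 1.5 times for a length), 16 moved it and 3 turned its sign. Among those that left it, the ratio under an overlap of at least 50% could not change, because the ratio uses no pairing. The ratio of knockout to wild type hotspots, 1.29, was 1.53 with hotspots at or above the 25th percentile of strength of their list, 1.503 at a relative strength of at least 0.5, and 0.856 with the strongest knockout hotspots, as many as the wild type list holds. The wild-type-only share, 19.2%, was 7.50, 5.27 and 6.21% at the 25th percentile, at strength of at least 100 and at relative strength of at least 0.5, and the knockout-only share, 37.4%, was 31.1, 23.1 and 28.1%. Over the 16 other autosomes the same floors gave wild-type-only shares of 5.40, 3.68 and 4.33%, and knockout-only shares of 39.4, 29.4 and 35.5%. Windows with more wild-type-only than knockout-only hotspots, 3.28% of 5 Mb windows, were 0% of 10 Mb windows and 0% at the 25th percentile. At strength of at least 100 they were again 2 windows, 55 to 60 and 65 to 70 Mb of chromosome 13. The longest stretch without a knockout-only hotspot was 7.94 Mb at strength of at least 100, where fewer hotspots count. The median log2 of shared hotspots, 0.15, was −0.12 with strengths as deposited, −0.035 as shares of summed strength and −0.032 at or above the 25th percentile in both lists. The share of knockout-only hotspots at gene ends, 48.6%, was 45.0% within 500 bp, 55.4% with all annotated genes and 65.3% at strength of at least 100. The wild-type-only share near Ankrd31, 25.8%, was 50% within 1 Mb, where it rests on 6 hotspots. Floors on relative strength, and on strength of at least 100 for shares, windows, stretches and gene ends, were chosen after seeing the data. At low read counts a missing partner says only that it was not listed. No paired analysis was possible because each list holds no values by replicate. For the same reason leaving out a replicate could not be run.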

Other observations

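The order of chromosomes in both lists is by name as text: 1, 10 to 19, then 2 to 9 and X. In this order the wild type list has a 5th percentile of 41 to 45 reads on the first 7 chromosomes, 1 and 10 to 15, and of 57.3 to 64 on the other 12 autosomes. The knockout list has 35 to 45 reads on the first 4, 1 and 10 to 12, and 51 to 55 from chromosome 13 on. Taken as whole chromosomes, 13, 14 and 15 are those between both steps. The step in the wild type list falls between 15 and 16: by 20 Mb, the 10th percentile of reads was 50 to 56 along chromosome 15 and 70.3 to 85.5 along 16. Values also varied within chromosomes. In the wild type list they were 69.6 and 66.8 from 60 to 100 Mb of chromosome 1 and 46.6 to 56 elsewhere on it, and along chromosome 13 they ran from 46.3 to 63. In the knockout list they were 41.2 and 55.0 in the first 40 Mb of chromosome 1, 68.4, 64.6 and 63.0 from 40 to 100 Mb, and 37.6 to 47.6 beyond. On chromosome 12 they were 47.6 in the first 20 Mb, 56.2 to 67.2 from 20 to 100 Mb and 39 beyond. Wild type values were also below knockout values in parts of these chromosomes. From 40 to 100 Mb of chromosome 12 they were 58, 55 and 48.9 against 67.2, 62.8 and 58. From 20 to 60 Mb of chromosome 1 they were 49.2 and 47 against 55 and 68.4. Elsewhere on both chromosomes the wild type values were higher. Along chromosomes 13, 14 and 15 the knockout values were 54.0 to 68.6. No header or label states how the lists were filtered by chromosome. The part of such a step in the wild-type-only counts was not tested.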
